A study of Mus musculus with 6 samples.

Results

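The tripartite motif (TRIM) genes were taken as all protein-coding genes whose symbol is Trim followed by a number. There were 68 of them among the 54532 genes listed, each with 1 entry, and 33 averaged 1 FPKM or more (reads divided by gene length in kilobases and by library size) and entered the test. The RNA came from C57BL/6 macrophages, the tissue phagocytes, labelled as grown from bone marrow (the series title speaks of monocytes). One group carried siRNA, a short RNA that directs cleavage of a matching transcript, against Cxcr4 (siCXCR4), and the other a negative-control siRNA (siNC). Both groups had received LPS, the endotoxin of gram-negative bacteria, at 100 ng/ml for 12 hours, so no library shows the state without LPS. The labels give 3 replicates per group, but the table of siNC replicate 3 held the same reads as siNC replicate 2 in all 19072 genes with reads, so these differed by less than sampling noise and count here as 1 sample. The comparison rests on 3 siCXCR4 and 2 siNC libraries, and the labels do not say whether animals or cultures differed between them, so p-values reflect only how these samples spread, possibly for technical reasons.

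TRIM proteins typically, but not always, carry a RING domain, B-box zinc fingers and a coiled coil. Most act as ubiquitin ligases that attach ubiquitin chains to other proteins. In macrophages many are induced by interferon and act on the sensors and adaptors that detect viral or bacterial products, either raising or restraining the signal. Others repress transcription on chromatin, organise microtubules or work in muscle, nerve or germ cells. In the mouse, genes related to primate TRIM5 and TRIM34, with the Trim30 genes, lie in tandem on chromosome 7.

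Libraries held 18890751 to 21780840 reads in genes. Cxcr4, the siRNA target, had 31.1, 36.2 and 32.7 FPKM in siCXCR4, against 41.3 and 42.1 FPKM in siNC. The groups did not overlap, with a log2 fold change (siCXCR4 minus siNC, of FPKM + 1, as throughout) of -0.32 (SE 0.0704) and an adjusted p of 0.457 by limma. The 7 macrophage markers examined were all present, with means from 34.4 FPKM (Itgam) to 2365 FPKM (Lyz2). Of the markers of T cells, B cells, fibroblasts, dendritic cells and erythroid cells, 0 had a mean of 1 FPKM, and of 3 endothelial markers 1 did (Kdr, at 5.35 FPKM). The 5 neutrophil markers summed to 15.0 to 18.5 FPKM in siCXCR4 and 20.6 to 23.8 FPKM in siNC, carried by S100a8 and Camp, while Ly6g, Mpo and Elane stayed below 0.2 FPKM in every library. Their part in the TRIM values was not tested, and in bulk RNA fewer cells of a type and less RNA per cell cannot be told apart.

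By limma, 0 of the 33 TRIM genes tested had an adjusted p under 0.05, as for all genes, where 0% of 9943 were called. The lowest adjusted p of a TRIM gene was 0.526, for Trim28. With an unadjusted p under 0.05 by limma there was 1 TRIM gene (3.03% of those tested, against 9.34% of all genes). It was higher in siCXCR4, as were 5.8% of all genes, and 0 were lower, against 3.54% of all genes. On whole reads worked back from FPKM, edgeR called 0 of 44 TRIM genes with enough reads, against 0.133% of all genes, and DESeq2 called 0, against 0.266%. At an unadjusted p under 0.05, edgeR had 6 of the 44 (13.6%, against 9.73% of all genes). Of the 6, 1 was higher in siCXCR4 (4.46% of all genes were) and 5 lower (5.27% of all genes), and 4 of the lower ones averaged below 1 FPKM. DESeq2 had 1 higher, against 2.68% of all genes, and 1 lower, against 2.84%, where both directions together made 5.52% of all genes.

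The levels ranged widely between the genes. 2 genes had means of at least 100 FPKM, 14 lay between 10 and 100, 17 between 1 and 10, and 22 were above 0 but below 1, while 13 had no read in any of the 5 libraries. Trim30a led, followed by Trim30c, Trim25, Trim30d, Trim35, Trim21, Trim28 and Trim34a. In this order the lowest library of each gene down to Trim28 lay above the highest library of the next, by the least for Trim28 (lowest 26.4 FPKM) over Trim34a (highest 25.6 FPKM). The next in order, Trim14, Trim12c and Trim56, had means of 21.8, 20.8 and 20.3 FPKM and overlapped with their neighbours from Trim34a to Trim56. The order by FPKM depends on gene length. In reads per library, Trim30c (4875 to 5837) lay below Trim25 (10697 to 12651).

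**Figure D1:**
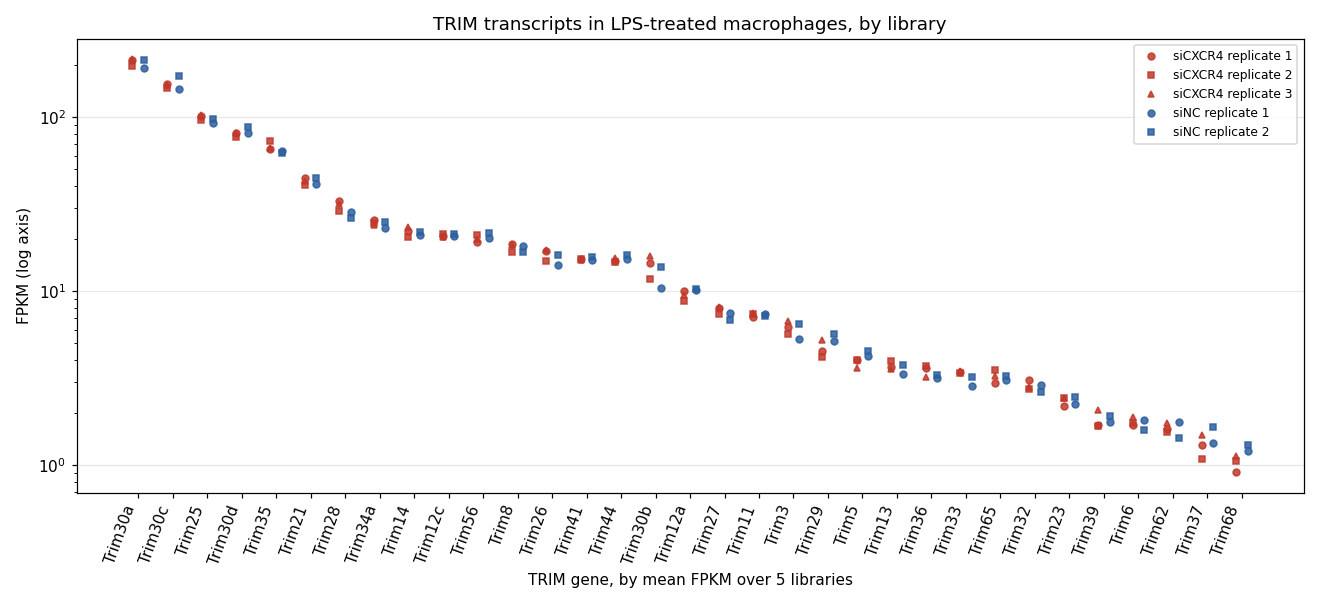
FPKM (log axis) in each library of the 33 TRIM genes averaging 1 FPKM or more, with siCXCR4 libraries in red to the left of siNC libraries in blue and 1 point per library. Genes are ordered by mean, and the spread between genes, from 205 FPKM for Trim30a to 1.12 FPKM for Trim68, is far wider than that between the libraries of any 1 gene.

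The tandem cluster on chromosome 7 spans 289 kb, from Trim6 to Trim30d (positions 104218793 to 104507849, GRCm38), and holds 10 TRIM genes. Together they made up 56.4%, 55.5% and 56.1% of the summed TRIM FPKM in siCXCR4, against 56.0% and 58.2% in siNC. Of the 10, 9 passed 1 FPKM, 0 were called, and 0 had an unadjusted p under 0.05. Their median log2 fold change was -0.01, with 4 genes above 0 and 5 below, beside a median of 0.01 over all genes tested.

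Trim30a (ENSMUSG00000030921), which in the mouse is known to restrain NF-kB signalling by removing the adaptors TAB2 and TAB3, lies on the minus strand at 104409025 to 104465193. It had 211, 197 and 214 FPKM in siCXCR4, against 191 and 213 FPKM in siNC. The groups overlapped, and the log2 fold change was 0.04 (SE 0.0680, 95% interval -0.12 to 0.20, adjusted p = 0.880 by limma). Trim30c had 154, 147 and 153 FPKM in siCXCR4, against 145 and 173 FPKM in siNC, so the siNC libraries lay on both sides of all siCXCR4 libraries. Trim30d had 81.0, 76.4 and 80.9 FPKM in siCXCR4, against 80.5 and 87.0 FPKM in siNC, also with overlap. Trim30b had 14.4, 11.7 and 16.0 FPKM in siCXCR4, against 10.3 and 13.7 FPKM in siNC. On the log2(FPKM + 1) scale its 95% interval was the widest of the 33 genes (-0.20 to 0.62). Per 50-base stretch of annotated transcript, 5.98% of Trim30a and 7.49% of Trim30d also occur in another gene, so some reads may be split between the copies. Summed over the 4 Trim30 copies, the reads, scaled to all reads in genes, were 1546, 1440 and 1589 CPM in siCXCR4, against 1457 and 1635 CPM in siNC (exact two-sided permutation test, p = 0.8, where 3 libraries against 2 cannot go below 0.1).

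Trim5, Trim12a and Trim12c are among the mouse genes related to primate TRIM5, which blocks incoming retroviral capsids. Trim12a had 9.99, 8.79 and 9.55 FPKM in siCXCR4, against 10.1 and 10.2 FPKM in siNC. Trim5 had 4.01, 4.03 and 3.59 FPKM in siCXCR4, against 4.25 and 4.54 FPKM in siNC. In both genes every siCXCR4 library lay below both siNC libraries, as did 9.92% of all genes tested. The log2 fold change was -0.10 (SE 0.0639, adjusted p = 0.661 by limma) for Trim12a and -0.15 (SE 0.0693, adjusted p = 0.561 by limma) for Trim5. Trim12c had 20.6, 21.1 and 20.4 FPKM in siCXCR4, against 20.7 and 21.1 FPKM in siNC, with overlap. These copies share more sequence: 36.3% of the 50-base stretches of Trim5, 33.0% of those of Trim12c and 10.4% of those of Trim12a occur in another gene. Their summed reads were 149, 145 and 147 CPM in siCXCR4, against 156 and 158 CPM in siNC. The sums did not overlap and the log2 ratio was -0.09, with p = 0.1, the smallest that the exact two-sided permutation test can give here.

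Trim34a and Trim34b are close copies that differed in level. Trim34a had 25.6, 24.7 and 24.1 FPKM in siCXCR4, against 22.9 and 24.9 FPKM in siNC. Trim34b stayed at 0.546, 0.307 and 0.310 FPKM in siCXCR4, against 0.270 and 0.548 FPKM in siNC, which are 11 to 22 reads per library. Of the 50-base stretches of Trim34b, 56.8% also occur in Trim34a, so some of its few reads cannot be assigned from the deposited values. The sum of both was 67.4, 64.7 and 63.8 CPM in siCXCR4, against 61.5 and 67.1 CPM in siNC, with overlap. Trim6, at the start of the cluster, had 1.70, 1.74 and 1.89 FPKM in siCXCR4, against 1.81 and 1.59 FPKM in siNC.

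**Figure D2:**
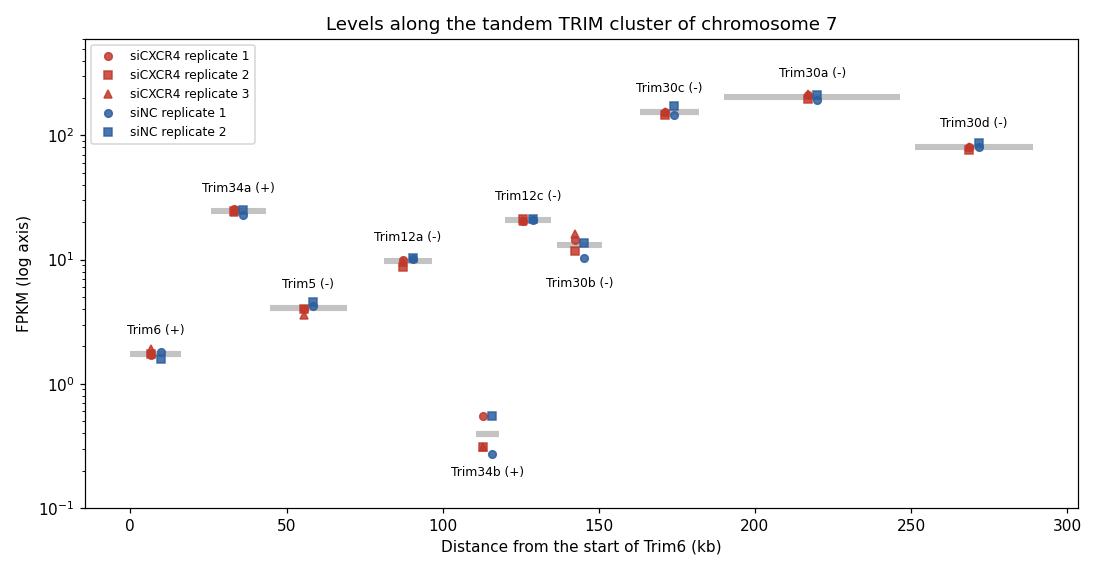
FPKM (log axis) of the 10 TRIM genes of the chromosome 7 cluster against distance from the start of Trim6 in kb, with grey bars for the gene extents at their mean over 5 libraries and 1 point per library (siCXCR4 red, siNC blue). The signs give the strand. Trim30c, Trim30a and Trim30d lie side by side at 81.2 to 205 FPKM, while Trim34b, at a mean of 0.396 FPKM, lies between Trim12a and Trim12c.

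Promoter windows from RefSeq (GRCm38.p6, from 250 bases before to 50 after the annotated start) were found for 53 of the 68 TRIM genes. They were searched on both strands for GAAA, any 2 bases and GAAA again (TTTC, any 2 bases and TTTC when read on the other strand), the paired repeat at the core of the interferon-stimulated response element bound by interferon-induced factors. A match was in 9 of the 53 TRIM genes (17%), against 3.99% of all 27025 genes with a window. Of the 33 genes averaging 1 FPKM or more, 24 had a window. Of these, 8 had a match (Trim30a, Trim30d, Trim21, Trim34a, Trim12c, Trim26, Trim12a and Trim5). Of the 29 scarcer genes with a window, 1 had a match (Trim2, at 0.0102 FPKM). Whether a match bears on the level was not tested, and tandem copies are not independent cases. In the cluster, 6 of 10 genes had a match, so most of the 9 are tandem copies and the 17% is not a trait of the family at large. The Trim30b window (104358597 to 104358896, minus strand) lies inside the gene extent used here. The start of that extent, at 104369884, was not searched. A match is a description of these letters, not a binding site shown by the data, and the tandem copies share their ancestry.

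The Trim34 windows are shown in full, with matches in capitals. Whether a match bears on the level of either copy was not tested. Trim34a holds a match that begins at position 10 from the start base, and Trim34b holds none in this window. The Trim34 windows were not aligned, so whether they cover the same part of both copies is not known.
Trim34a, chr7:104244207-104244506, plus strand: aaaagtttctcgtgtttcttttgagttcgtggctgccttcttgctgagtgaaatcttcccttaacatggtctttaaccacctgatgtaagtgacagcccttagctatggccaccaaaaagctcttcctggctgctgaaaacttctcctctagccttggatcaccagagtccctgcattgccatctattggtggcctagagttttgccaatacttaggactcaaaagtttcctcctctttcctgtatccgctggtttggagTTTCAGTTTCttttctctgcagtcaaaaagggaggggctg
Trim34b, chr7:104329221-104329520, plus strand: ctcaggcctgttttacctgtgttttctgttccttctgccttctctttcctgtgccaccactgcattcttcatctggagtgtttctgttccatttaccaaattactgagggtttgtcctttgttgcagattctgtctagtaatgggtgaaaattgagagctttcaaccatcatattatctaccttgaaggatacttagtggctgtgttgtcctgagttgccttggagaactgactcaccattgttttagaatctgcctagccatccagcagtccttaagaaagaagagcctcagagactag

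The 80 bases around the match in the Trim30 genes are shown with the 10 motif bases in capitals, or, for Trim30c, the 10 bases that align to them. The windows of Trim30a and Trim30d are identical in 98.8% of bases, and that of Trim30c is identical to Trim30d in 86.2%.
Trim30a, chr7:104465190-104465269, minus strand: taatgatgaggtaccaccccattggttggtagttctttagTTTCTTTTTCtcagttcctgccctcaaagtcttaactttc
Trim30d, chr7:104507851-104507930, minus strand: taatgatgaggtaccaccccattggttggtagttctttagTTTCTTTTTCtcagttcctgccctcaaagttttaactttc
Trim30c, chr7:104400876-104400955, minus strand: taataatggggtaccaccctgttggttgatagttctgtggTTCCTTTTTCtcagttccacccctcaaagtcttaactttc

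Counted from 1 at the 5′ end of the 10 bases, Trim30c carries T3C relative to Trim30d, so the searched letters are not there. Its mean was 154 FPKM, against 81.2 FPKM for Trim30d, but this order rests on gene lengths of 1716 and 3758 bases. In reads, Trim30c was the lower of these genes in every library (4875 to 5837, against 5569 to 6678 for Trim30d). Whether the motif bears on the level was not tested. In the RefSeq window of Trim30c this block begins further upstream, with the 10 bases at position -137, against -41 in Trim30d and -36 in the Trim30a entry shown (a second RefSeq entry of Trim30a has a match at position 2).

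The same window in Trim12c, Trim12a and Trim5 holds another version of the repeat. The summed reads of these 3 genes did not overlap between the groups, but the groups overlapped in Trim12c taken by itself. They also overlapped in Trim30a, Trim30d, Trim21, Trim34a and Trim26, whose windows hold a match as well. A link between the repeat and the groups was not tested. Trim12a and Trim5 are each identical to Trim12c in 96.2% of bases.
Trim12c, chr7:104353339-104353418, minus strand: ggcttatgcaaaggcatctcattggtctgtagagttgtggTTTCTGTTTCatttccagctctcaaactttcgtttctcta
Trim12a, chr7:104315446-104315525, minus strand: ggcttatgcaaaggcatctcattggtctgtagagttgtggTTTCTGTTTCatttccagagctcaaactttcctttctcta
Trim5, chr7:104288116-104288195, minus strand: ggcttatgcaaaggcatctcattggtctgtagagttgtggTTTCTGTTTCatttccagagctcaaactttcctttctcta

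Trim21 lies on chromosome 7 outside the cluster, and its window holds 2 overlapping matches just after the annotated start, at positions 13 and 19.
Trim21, chr7:102565433-102565732, minus strand: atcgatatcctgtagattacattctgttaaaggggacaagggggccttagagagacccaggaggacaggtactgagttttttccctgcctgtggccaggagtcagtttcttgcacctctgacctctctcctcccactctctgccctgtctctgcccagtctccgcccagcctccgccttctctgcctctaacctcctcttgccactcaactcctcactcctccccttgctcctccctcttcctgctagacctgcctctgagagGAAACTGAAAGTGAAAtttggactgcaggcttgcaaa

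Of 17 TRIM genes with roles in antiviral and inflammatory signalling, 12 passed 1 FPKM and 0 were called. Their median log2 fold change was 0.03, with 8 above 0 and 4 below, and the groups overlapped in all 12. Trim25 (ENSMUSG00000000275, chromosome 11, plus strand, 88999376 to 89020293), the ligase known for activating the RNA sensor RIG-I, had 101, 95.9 and 103 FPKM in siCXCR4, against 91.8 and 97.6 FPKM in siNC. Its log2 fold change was 0.07 (SE 0.0558, 95% interval -0.06 to 0.21, adjusted p = 0.691 by limma). Trim21 (ENSMUSG00000030966, minus strand, 102557921 to 102565486), a cytosolic receptor for antibodies bound to pathogens, had 44.6, 40.9 and 43.1 FPKM in siCXCR4, against 41.0 and 44.9 FPKM in siNC. The group means of Trim21 were 42.9 ± 1.87 FPKM in siCXCR4 (SD, n = 3) and 42.9 ± 2.76 FPKM in siNC (SD, n = 2).

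Trim14, a mitochondrial adaptor in signalling by the protein MAVS, had 22.0, 20.4 and 23.5 FPKM in siCXCR4, against 21.1 and 21.8 FPKM in siNC. Its exons overlap those of Nans on the opposite strand, which averaged 564 reads against 1925 for Trim14, and without a stated strand setting these reads cannot be told apart. Trim27, which restrains NF-kB and interferon signalling, had 7.96, 7.42 and 8.07 FPKM in siCXCR4, against 7.48 and 6.84 FPKM in siNC, with a log2 fold change of 0.11 (SE 0.0638, adjusted p = 0.617 by limma). The other genes of this set that passed 1 FPKM were Trim56, Trim8, Trim26, Trim41, Trim13, Trim65, Trim32 and Trim23, with log2 fold changes from -0.06 (Trim56) to 0.11 (Trim26). Trim41 overlaps Rack1 by 31 exonic bases on the opposite strand, where Rack1 averaged 7894 reads against 1095 for Trim41. Trim56 and Trim32 are known to act on the DNA-sensing adaptor STING, and Trim65 on the RNA sensor MDA5.

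The remaining 5 genes of that set were scarce. Trim38, which in other macrophage studies restrains TAB2 and TAB3, had 0 to 3 reads per library, and Trim31 and Trim40 had none. Trim59 was at 0.192, 0.292 and 0.187 FPKM in siCXCR4, against 0.379 and 0.333 FPKM in siNC, from 12 to 28 reads per library. Trim15 had 2 to 13 reads per library.

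Among the chromatin regulators, Trim28 and Trim33 passed 1 FPKM, and both were above 0 with groups that did not overlap. Trim28 (ENSMUSG00000005566, chromosome 7, plus strand, 12999114 to 13031035), the corepressor that KRAB zinc-finger proteins bring to DNA to silence retroelements, had 32.8, 28.9 and 31.5 FPKM in siCXCR4, against 28.5 and 26.4 FPKM in siNC. The lowest siCXCR4 library lay just above the higher siNC library. Its log2 fold change was 0.17 (SE 0.0684, 95% interval 0.01 to 0.33), with an unadjusted p of 0.0429 and an adjusted p of 0.526 by limma. Over the alternatives run, the adjusted p of Trim28 stayed between 0.165 and 0.924. Trim33, a relative of Trim28 that binds SMAD proteins in TGF-beta signalling, had 3.41, 3.38 and 3.46 FPKM in siCXCR4, against 2.84 and 3.20 FPKM in siNC, with a log2 fold change of 0.14 (SE 0.0668, adjusted p = 0.570 by limma). Groups without overlap, with siCXCR4 higher, were found in 17.9% of all genes tested. Trim24, a cofactor of nuclear receptors, was at 0.625, 0.502 and 0.607 FPKM in siCXCR4, against 0.612 and 0.690 FPKM in siNC, and Trim66 had 3 to 14 reads per library.

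**Figure D3:**
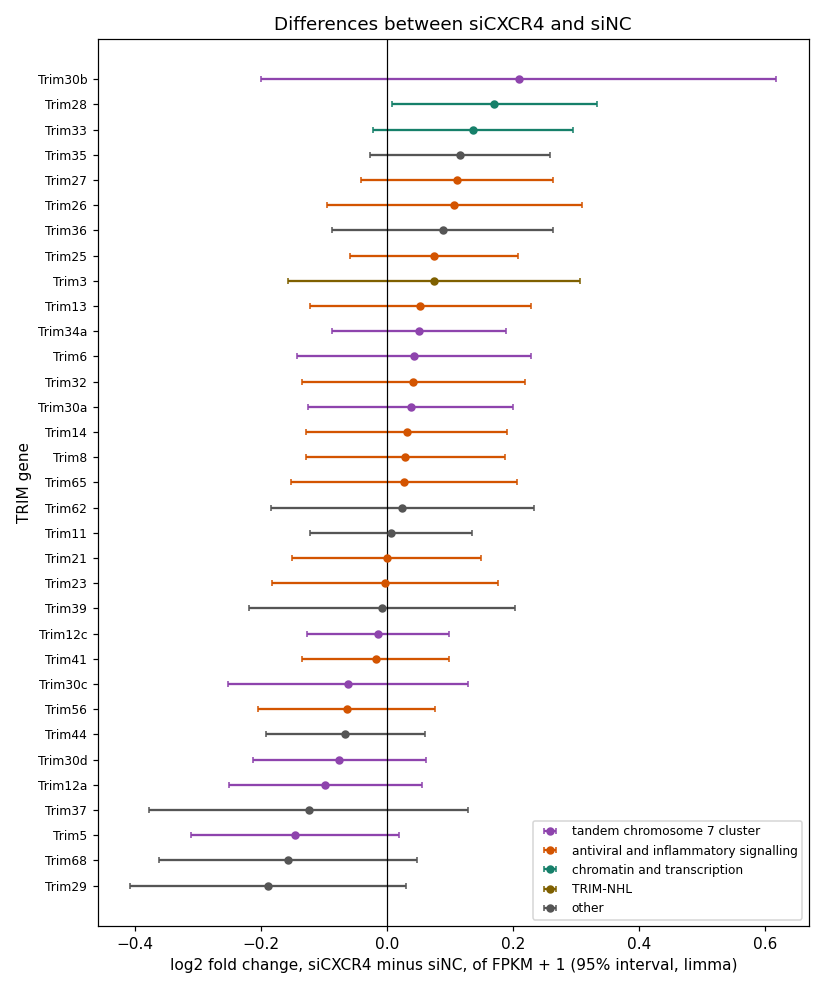
Log2 fold change (siCXCR4 minus siNC, of FPKM + 1) of the 33 TRIM genes tested, with 95% intervals from limma, coloured by role. The interval includes 0 in every gene but Trim28, whose adjusted p was 0.526, and Trim30b has the widest interval.

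Of the other TRIM genes, Trim35 (ENSMUSG00000022043, chromosome 14, plus strand, 66297031 to 66311424) was the most abundant, at 65.5, 72.5 and 66.5 FPKM in siCXCR4, against 63.8 and 61.7 FPKM in siNC. All siCXCR4 libraries lay above both siNC libraries, with siCXCR4 replicate 2 the highest, and the log2 fold change was 0.12 (SE 0.0601, adjusted p = 0.591 by limma). Trim29, described in mouse alveolar macrophages as a brake on NF-kB signalling, had 4.49, 4.19 and 5.25 FPKM in siCXCR4, against 5.16 and 5.68 FPKM in siNC. On the FPKM + 1 scale it had the most negative log2 fold change of the 33, -0.19 (SE 0.0917, adjusted p = 0.567 by limma), with groups that overlapped. By edgeR its unadjusted p was 0.0344 (adjusted p = 0.468), lower in siCXCR4. Trim68 had 0.911, 1.05 and 1.13 FPKM in siCXCR4, against 1.21 and 1.31 FPKM in siNC, without overlap and with a log2 fold change of -0.16 (SE 0.0860, adjusted p = 0.610 by limma), from 69 to 93 reads per library. The pseudocount sets this order: with 0.1 in place of 1, Trim68 was at -0.27 and Trim29 at -0.22. By edgeR they were at -0.31 and -0.24. Trim44, Trim11, Trim36, Trim39, Trim62 and Trim37 had overlapping groups and log2 fold changes from -0.12 (Trim37) to 0.09 (Trim36). Of the TRIM genes with an NHL repeat domain listed apart, Trim3 had 6.22, 5.66 and 6.75 FPKM in siCXCR4, against 5.28 and 6.44 FPKM in siNC, while Trim2 had 2 to 7 reads per library and Trim71, an embryonic RNA-binding ligase, had none.

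In all, the groups did not overlap in 6 of the 33 genes tested, with 3 higher (Trim28, Trim33 and Trim35) and 3 lower (Trim5, Trim12a and Trim68) in siCXCR4. This is 18.2% of the TRIM genes, where 27.8% of all genes tested had groups without overlap. The median log2 fold change of the 33 was 0.03, beside 0.01 over all genes. The median of the 33 depends on the scaling of the libraries, at 0.015 with TMM scaling and 0.013 with edgeR. The median over all genes is not given under these scalings, so they do not show how the gap to it changes. The 95% interval stayed within a 1.25-fold change in both directions for 28 of the 33 genes (84.8%, against 74.1% of all genes) and within 1.5-fold for 32 (97%, against 93.7% of all genes). The fold is of FPKM + 1, which shrinks changes of low genes. With a pseudocount of 0.1 these were 20 genes (60.6%, against 58% of all genes) and 30 genes (90.9%, against 88.6%).

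Just above the threshold of 1 FPKM lay Trim68, at a mean of 1.12 FPKM, and Trim37, at 1.38 FPKM. Just below it, Trim46, which bundles microtubules in axons, had 0.860, 0.843 and 0.936 FPKM in siCXCR4, against 0.753 and 0.696 FPKM in siNC, and its exons overlap those of Krtcap2 on the opposite strand (568.6 reads on average, against 63.2). Trim47 had 0.537, 0.509 and 0.611 FPKM in siCXCR4, against 1.01 and 0.816 FPKM in siNC, from 27 to 61 reads per library. By edgeR, Trim47 had a log2 fold change of -0.75 with an unadjusted p of 0.00692 and an adjusted p of 0.309. Its exons overlap those of Trim65 on the same strand, which averaged 385 reads against 39.2 for Trim47, so reads of the shared part may belong to either. Trim43c, Trim17 and Trim66 also had an unadjusted p under 0.05 by edgeR, all lower in siCXCR4, with adjusted p of 0.495, 0.497 and 0.450, from 3 to 36 reads per library. Trim43c and Trim17 also share exonic bases with genes of more reads (9330159M07Rik and Hist3h2a).

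The 13 genes without reads were Trim10, Trim31, Trim40, Trim42, Trim50, Trim52, Trim54, Trim60, Trim61, Trim63, Trim67, Trim71 and Trim80. Trim54 and Trim63, with Trim55 at up to 2 reads, are ligases of striated muscle. A count of 0 allows up to 3 reads per library, for counting error only, or at most 0.0168 to 0.109 FPKM depending on gene length.

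The 2 siNC libraries differed from each other in many TRIM genes. In 25 of the 33 TRIM genes (75.8%), the gap between the siNC libraries was larger than the difference between the group means on the log2 scale, against 55% of all genes tested. A gap between 2 single libraries varies more than a difference of means. These shares therefore do not compare the spread within groups with that between them. siNC replicate 1 held the lowest value in 10 of 33 TRIM genes and the highest in 1. siNC replicate 2 held the highest in 12 (36.4%, against 15.2% of all genes), and siCXCR4 replicate 3 held it in 11. siCXCR4 replicate 2 held the lowest in 9. In the chromosome 7 cluster, the mean deviation from the 5-library mean was 0.02, -0.05 and 0.02 in siCXCR4 and -0.05 and 0.06 in siNC, on the log2(FPKM + 1) scale, so siCXCR4 replicate 2 lay with siNC replicate 1.

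**Figure D4:**
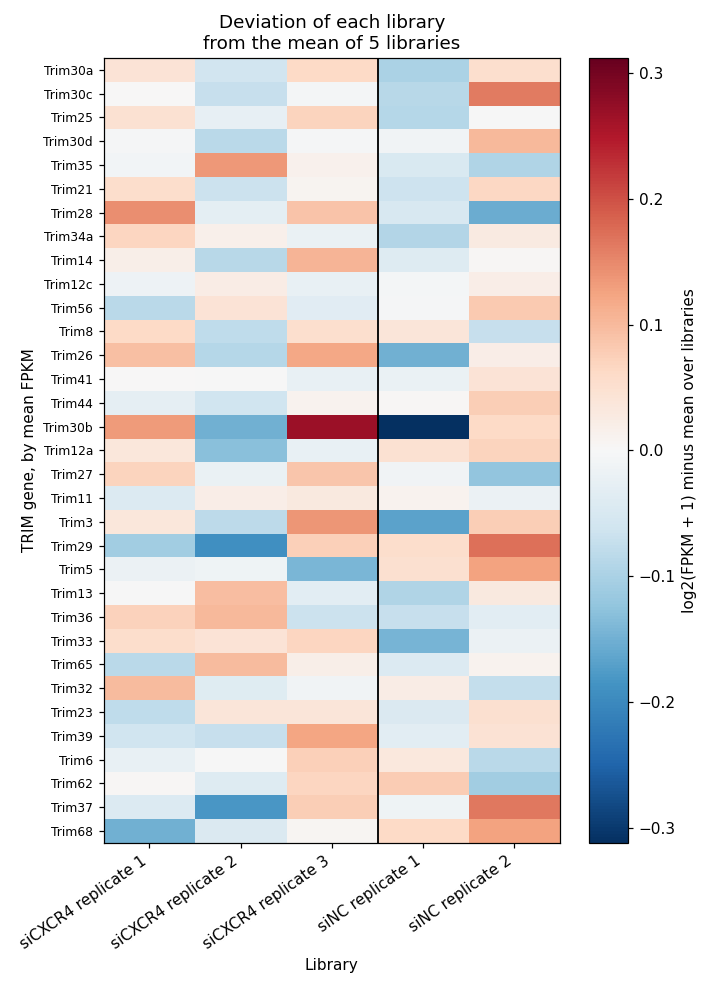
Deviation of each library from the mean of the 5 libraries, on the log2(FPKM + 1) scale, for the 33 TRIM genes ordered by mean, with the siCXCR4 libraries left of the line and the siNC libraries right of it. The siNC libraries often lie on opposite sides of 0, with siNC replicate 2 the highest library in 12 genes and siNC replicate 1 the lowest in 10.

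Interferon-induced genes in the same libraries are given for the state of the cells. Usp18, which removes the ubiquitin-like protein ISG15, had 269, 245 and 257 FPKM in siCXCR4, against 218 and 226 FPKM in siNC, and Ifit1, which binds viral RNA, had 741, 645 and 668 FPKM in siCXCR4, against 574 and 615 FPKM in siNC. Neither group pair overlapped, and the adjusted p was 0.488 for Usp18 and 0.512 for Ifit1 by limma. Isg15 itself had 2121, 2168 and 1902 FPKM in siCXCR4, against 2084 and 2114 FPKM in siNC, with overlap. Of the 7 such genes examined, 0 were called and 2, Usp18 and Ifit1, had an unadjusted p under 0.05 (28.6%, against 9.34% of all genes tested). In 3 of the 7, Irf9 being the other, siCXCR4 was higher without overlap, where 17.9% of all genes were. siNC replicate 1 was the lowest library in 5.

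The partners of TRIM ligases were examined as a list of 36 genes: sensors, adaptors and kinases on which TRIM proteins act, ubiquitin-conjugating enzymes that work with them, and chromatin partners of Trim28. Of these, 34 passed 1 FPKM and 0 were called by limma, edgeR or DESeq2. With p under 0.05 before adjustment, limma had 1 higher (5.8% of all genes were) and 1 lower (3.54% of all genes), together 5.88% of the 34 against 9.34% of all genes. The groups did not overlap in 14, with 8 higher and 6 lower, which is 41.2% against 27.8% of all genes tested. The median log2 fold change was 0.02. The higher one was Ube2d1, a ubiquitin-conjugating enzyme that serves many RING ligases, at 5.61, 4.93 and 5.34 FPKM in siCXCR4, against 4.29 and 4.73 FPKM in siNC (log2 fold change 0.19, adjusted p = 0.512 by limma). The lower one was Cbx1, a heterochromatin protein bound by Trim28, at 8.33, 7.49 and 7.03 FPKM in siCXCR4, against 8.46 and 9.08 FPKM in siNC (log2 fold change -0.18, adjusted p = 0.534 by limma).

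Of the other partners of lowest p, Tab2, the adaptor that Trim30a removes, had 30.1, 29.3 and 31.1 FPKM in siCXCR4, against 27.0 and 28.3 FPKM in siNC. Ddx58, which encodes the Trim25 substrate RIG-I, had 92.4, 83.2 and 92.1 FPKM in siCXCR4, against 79.2 and 82.4 FPKM in siNC. Irf7, the interferon regulatory factor that amplifies type I interferon, had 696, 625 and 660 FPKM in siCXCR4, against 581 and 622 FPKM in siNC. All 3 were without overlap, with adjusted p of 0.538, 0.549 and 0.576 by limma. Ikbkg, which encodes the kinase subunit NEMO, lay the other way, at 9.91, 10.3 and 9.73 FPKM in siCXCR4, against 10.6 and 11.3 FPKM in siNC (adjusted p = 0.549 by limma).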

How the data were processed

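RNA sequencing of 6 labelled samples was available as 1 table per sample. In 5 tables the authors deposited values read here as FPKM. No header names a unit, and RPKM is equally possible. Within each library, 100% of values above 0, multiplied by gene length, came out as whole reads of 1 fixed size (tolerance 0.05). The table of siNC replicate 3 holds read counts as deposited, and repeats siNC replicate 2. The FPKM denominators were larger than the reads summed over the listed genes. The part not accounted for was 0.00033% to 1.37% in siCXCR4 and 2.15% and 2.80% in siNC, which lowers siNC values slightly. What makes up this part is not known. The aligner, counter, strand setting and handling of multi-mapping reads were not given in the sources used here. Per the file headers, siNC columns are named wt and siCXCR4 columns mko, and what mko stands for is not explained. The submitters' processing notes name mm9, but 98.3% of gene positions equal those of GRCm38, which is used here.

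The comparison used limma 3.58.1 (R 4.3.3) (trend and robust options) on log2(FPKM + 1). It covered the 9943 genes averaging 1 FPKM or more, and two-sided p-values were Benjamini-Hochberg adjusted over all of them. Of entries with 1 symbol the highest was kept. edgeR 4.0.16 (TMM, robust quasi-likelihood) and DESeq2 1.42.0 were run on the whole reads of 12794 genes. The tests were also run on simulated data, with planted changes larger than those of any TRIM gene averaging 1 FPKM or more. That run does not show whether changes as small as these could be found. Members, lists and tests were chosen with earlier results of these data known. Values per library are given for the 8 TRIM genes of lowest p, the 8 of highest mean, and, chosen after their values were seen, further genes of each role group. Shared sequence was counted over 50-base stretches of annotated transcripts (GENCODE M21). Read ranges cover counting error only.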

Additional observations from a re-analysis of the deposited data

How the results depend on the processing

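No TRIM gene was called under any of the 16 alternatives. The count of all genes called, 0 by limma, was 17 with edgeR, 34 with DESeq2 and 6 with the copied siNC table counted as a separate library, and 0 to 1 with each library left out (1 without siCXCR4 replicate 2). The count of TRIM genes at an unadjusted p under 0.05, which was 1, became 0 with no filter, quantile normalization, TMM scaling, or limma without trend and robust estimate. Among genes averaging 1 FPKM or more it became 2 with edgeR (6 with the scarcer genes included) and 6 with the copied table, and ran from 0 to 2 with each library left out (2 without siNC replicate 1, 0 without siNC replicate 2 or siCXCR4 replicate 1). Cxcr4 passed the threshold with DESeq2 only (log2 fold change -0.34, adjusted p = 0.0496, where its alternatives ran from 0.0496 to 0.863). Some fold changes near 0 turned direction when 1 library was left out, with no call on either side. The log2 fold change ran from -0.038 to 0.11 for Trim30a, from -0.19 to 0.063 for Trim30c, from -0.065 to 0.063 for Trim21 and from -0.0080 to 0.11 for Trim34a, and the log2 ratio of summed reads from -0.038 to 0.087 for the Trim34 copies and from -0.10 to 0.065 for the Trim30 copies. The low end was without siNC replicate 1 and the high end without siNC replicate 2 in all 6. Without siCXCR4 replicate 2, Trim21 was at 0.03 and the Trim30 copies at 0.019. The median of the 33 TRIM genes, 0.03, was -0.010 without siNC replicate 1 and -0.0041 without siCXCR4 replicate 3. Other values moved by over 1.5 times when 1 library was left out, with their direction kept. Without siNC replicate 1, Trim33 was at 0.07, Trim25 at 0.03, Trim27 at 0.17 and Trim30d at -0.13. Without siNC replicate 2, Trim25 was at 0.12, Trim27 at 0.05 and Trim30d at -0.02. Without siCXCR4 replicate 2, Trim35 was at 0.07, Trim12a at -0.05 and Trim30d at -0.05. The cause of these shifts was not tested. With 1 siNC library left, that library is assumed to vary like the others.

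Replicate numbers 1 and 2 are shared by the groups, but deviations of same-numbered libraries correlated at -0.04 and -0.11, with only 2 pairs, so they were not taken as pairs. With the replicate number as a block, 0 genes were called, Trim28 had a log2 fold change of 0.16 (adjusted p = 0.924 by limma) and the median of the 33 TRIM genes was -0.0041.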

Other observations

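Some proteins of the TRIM class carry other names. Of 7 such genes examined, 3 passed 1 FPKM and 4 had no reads in any library (Mid2, Rnf207, Triml1 and Triml2). Mefv, which encodes pyrin, a sensor that assembles an inflammasome when bacterial toxins inactivate RhoA, had 104, 104 and 103 FPKM in siCXCR4, against 109 and 109 FPKM in siNC. All siCXCR4 libraries lay below both siNC libraries, with a log2 fold change of -0.07 and an adjusted p of 0.664 by limma. Pml, the organiser of nuclear bodies, had 42.2, 39.1 and 45.8 FPKM in siCXCR4, against 36.8 and 40.9 FPKM in siNC, with overlap. Mid1, a microtubule-bound ligase, had 3.63, 3.17 and 4.31 FPKM in siCXCR4, against 2.68 and 3.77 FPKM in siNC, also with overlap.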
